A study of Mus musculus with 6 samples.

Results

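Expression of the axon guidance ligands and receptors was examined in embryonic mouse hearts at E12.5. Axon guidance molecules are secreted or membrane-bound cues and their receptors, first described in the nervous system, that steer migrating cells and growing processes. Semaphorins act through plexins, with neuropilins as co-receptors for the secreted class 3 members. Slits act through Robo receptors, netrins through Dcc, neogenin and Unc5 receptors, and ephrins through Eph receptor tyrosine kinases on neighbouring cells. In the embryonic heart these pathways are known for guiding cardiac neural crest cells into the outflow tract, for shaping vessels and endocardium, and for cushion and chamber formation.

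The genes were chosen by their annotated symbol: Nrp1, Nrp2, Dcc and Neo1, and all genes whose symbol begins with Sema, Plxn, Unc5, Epha, Ephb, Efna or Efnb, or with Slit, Robo or Ntn and a digit. This gave 72 of the 18193 genes named on the array. The measured value used in the choice was brightness: a gene with several probe sets was read from the one whose mean log2 signal over the 6 arrays was highest. Unc50, Unc5cl and the opposite-strand transcript Plxna4os1 matched by their letters alone, which leaves 69 guidance genes. Of the 72 genes, 53 lay above the filter on dim signals, a mean log2 signal of 5.90, and were tested, 52 of them guidance genes. Signals of different genes come from different probe sets and are not set against each other.

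The data are 6 Affymetrix 3' expression arrays of C57BL/6 hearts, 3 labelled wildtype and 3 labelled Rhau KO, a deletion of the gene now called Dhx36. Dhx36 encodes an RNA helicase that unwinds G-quadruplexes. The labels name neither a Cre driver nor the deleted part of the gene, and 3 hearts were taken per group, per the series text. P-values thus measure the spread between these arrays.

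The targeted gene went against the labels, so groups are named by the label they carry. Dhx36 was at 8.99, 8.88 and 8.71 (log2 signal, replicates 1 to 3) with the wildtype label against 10.10, 10.48 and 10.23 with the Rhau KO label on the brightest of its 3 probe sets. Both remaining probe sets pointed the same way and passed (limma adjusted p = 2.31e-04 and 1.65e-04). Whether the labels are exchanged or the probe sets lie outside the deleted part was not tested. With exchanged labels every direction given here would turn. Nkx2-5, a homeobox factor of the early heart, differed by -1.29. Both Xist and Y-linked signal were found on wildtype-labelled replicate 3 and on Rhau KO-labelled replicates 1 and 2, a pair that cells of one embryo do not normally share. Mean Y-linked signal was 1.23%, 2.04% and 39.3% of the highest array with the wildtype label against 59.6%, 82.8% and 100% with the Rhau KO label. All 8 cardiomyocyte markers lay above the filter, with a summed linear signal of 179877 to 188106 in the arrays labelled wildtype and 158648 to 180299 in those labelled Rhau KO.

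Guidance genes that passed the test were mostly higher in the arrays labelled Rhau KO. Slit2, Robo1, Ntn1, Dcc, Sema3a, Sema3c, Sema3b, Sema5a, Sema6d, Nrp2, Plxnc1, Plxnd1, Epha3 and Ephb4 rose, from 1.16-fold for Sema6d to 1.91-fold for Dcc. Unc5b, Plxna2, Epha4 and Ephb3 fell, by 1.19-fold to 1.39-fold. Of the 53 tested, 14 rose (26.4%), 4 fell (7.55%) and 35 did not pass the adjusted p threshold of 0.05 in limma. Among all 12416 genes tested, 8.2% rose and 10.8% fell. With each array centred on its median, 532 of all genes rose and 1846 fell, against 1018 and 1336 as deposited. The median difference was 0.12 over the 53 genes and 0.01 over all genes tested (log2, labelled Rhau KO minus labelled wildtype). The groups did not overlap for 20 higher and 4 lower members, where 18.4% and 18.7% of all genes did so. These genes were taken up with earlier results of the same arrays known, so the counts are descriptions.

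**Figure D1:**
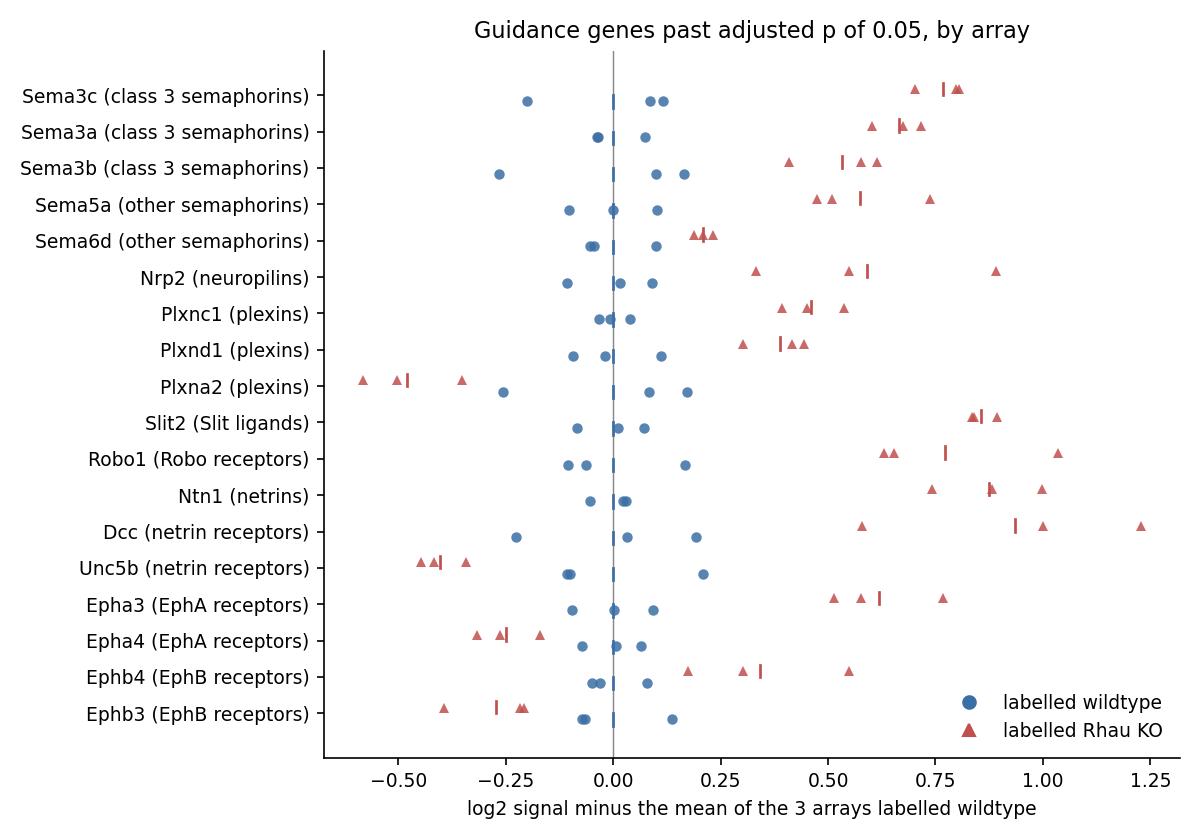
Log2 signal of the 18 guidance genes that passed the test, each array's value minus the mean of the 3 arrays labelled wildtype (x axis), with genes grouped by role (y axis). Circles are arrays labelled wildtype, triangles are arrays labelled Rhau KO and short lines are group means; the triangles lie to the right of all circles for 14 genes and to the left for Plxna2, Unc5b, Epha4 and Ephb3.

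Ligands and receptors were counted separately. Of 26 tested ligands 7 rose (26.9%) and 0 fell in limma, and at an unadjusted p under 0.05 the counts were 12 and 0, where 15.8% of all genes were higher and 16.8% lower at that threshold. Of 26 tested receptors 7 rose (26.9%) and 4 fell (15.4%). Whether the roles differ was not tested.

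**Figure D2:**
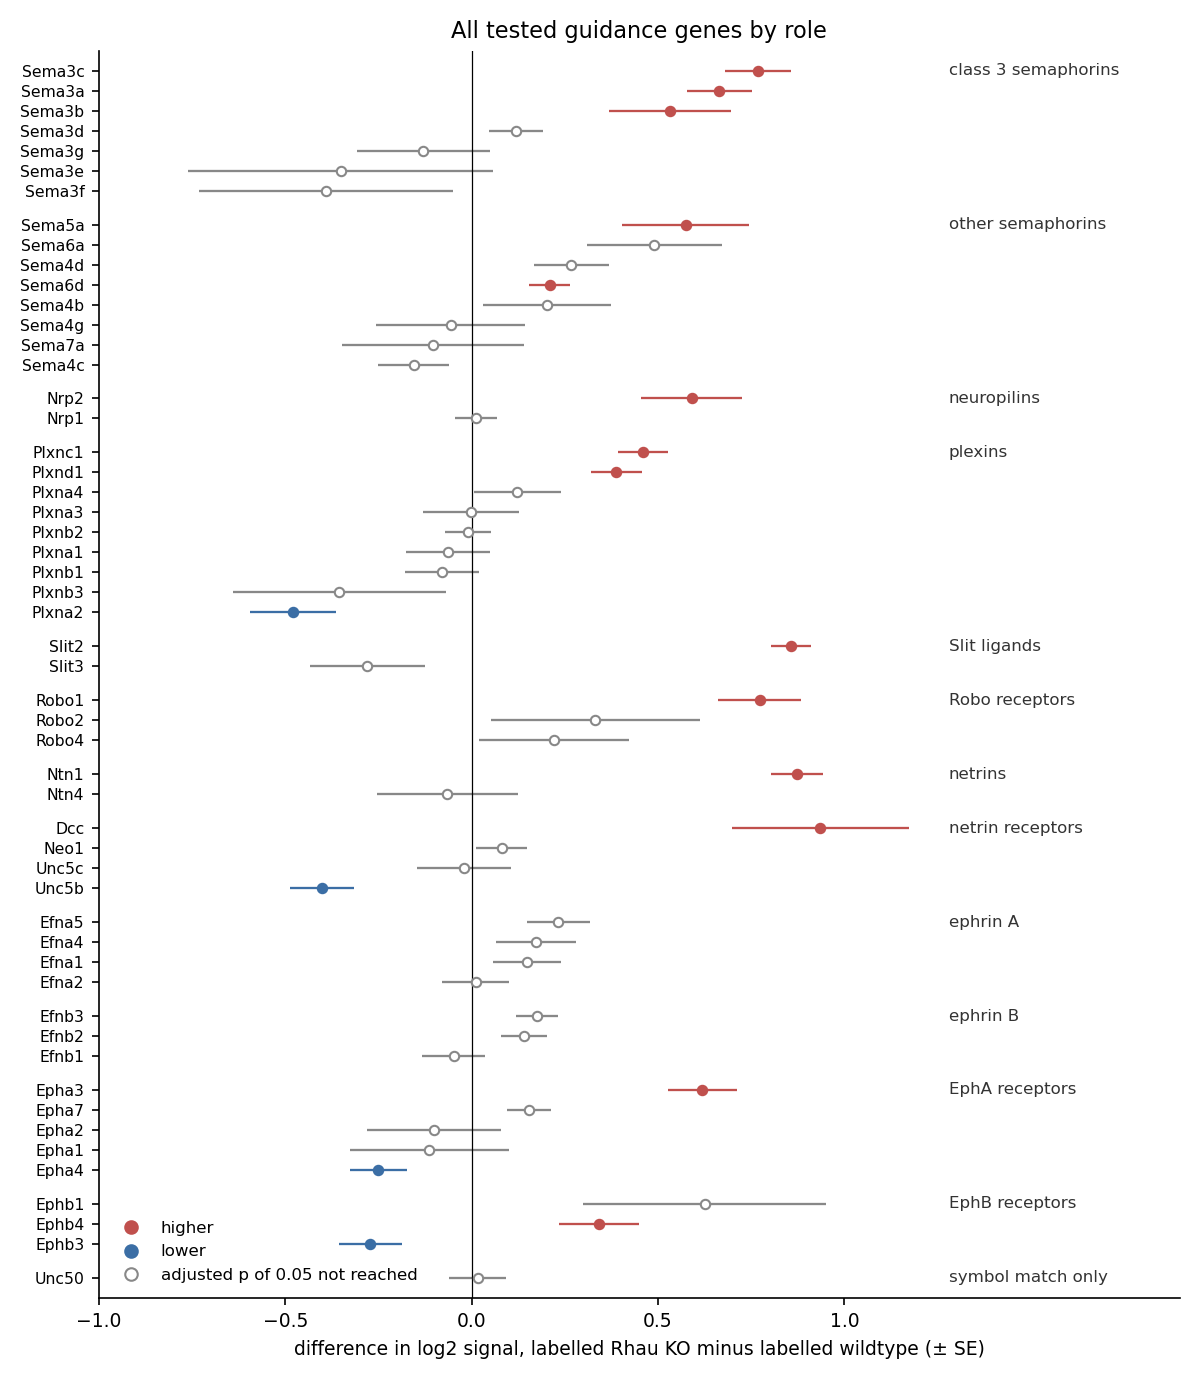
Difference in log2 signal, labelled Rhau KO minus labelled wildtype (x axis), of the 53 tested genes by role (y axis), with bars of 1 SE from limma. Filled red points rose, filled blue points fell and open points did not reach the threshold; all 4 blue points are receptors.

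Class 3 semaphorins, secreted cues that bind neuropilins, had 3 members that rose and 4 that did not pass of 7 tested. Sema3c, which acts on cardiac neural crest in outflow tract septation, was at 9.46, 9.77 and 9.74 with the wildtype label against 10.36, 10.45 and 10.46 with the Rhau KO label. Every array labelled Rhau KO lay above every array labelled wildtype. The difference of 0.77 (SE 0.088) was a 1.70-fold rise with limma adjusted p = 2.46e-04. Its other probe set, dimmer, differed by 0.24 without passing.

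Sema3a, a repellent of growing axons, was at 8.64, 8.53 and 8.54 with the wildtype label against 9.29, 9.25 and 9.17 with the Rhau KO label. The groups were well apart, at 0.66 (SE 0.087; limma adjusted p = 5.37e-04). Both other Sema3a probe sets also rose, by 1.37 and 0.57. Sema3b was at 7.34, 7.28 and 6.91 against 7.79, 7.75 and 7.59, a difference of 0.53 (SE 0.164; limma adjusted p = 0.0451). The lowest array labelled Rhau KO exceeded the highest labelled wildtype by less than the wildtype range. Its call was lost whichever array was left out, with differences of 0.40 to 0.61 and limma adjusted p from 0.0562 to 0.128. Of the members that did not pass, Sema3d differed by 0.12 (SE 0.072) and Sema3f by -0.39 (SE 0.341). On its brightest probe set Sema3f was at 7.41, 7.67 and 8.82 under the wildtype label, so that replicate 3 stood above the others. Another Sema3f probe set above the filter differed by 0.21, the other way, and another of Sema3d by 0.50, neither passing.

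Among the other semaphorins, most of which span the membrane, 2 of 8 tested rose and 6 did not pass. Sema6d, a ligand of class A plexins known from chamber formation, was at 11.73, 11.59 and 11.58 against 11.82, 11.84 and 11.87. That gap was small and the groups did not overlap, at 0.21 (SE 0.055; limma adjusted p = 0.0232). The Sema6d call was lost without replicate 2 or 3 labelled wildtype (0.19 and 0.18) and without replicate 3 labelled Rhau KO (0.20), and with median centring it stood at 0.14. Other Sema6d probe sets above the filter differed by 0.07 and 0.30 without passing. Sema5a, which carries thrombospondin repeats, was at 6.79, 6.89 and 6.68 against 7.52, 7.26 and 7.29. Its difference of 0.57 (SE 0.170; limma adjusted p = 0.0382) ranged from 0.49 to 0.63 without each array and no longer passed in any of those fits, at adjusted p from 0.0647 to 0.129. Another Sema5a probe set above the filter differed by 0.79 without passing. Sema4d and Sema4c did not pass, at 0.27 (SE 0.102) and -0.16 (SE 0.095).

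The neuropilins parted. Nrp2, a co-receptor for class 3 semaphorins and for VEGF-C, was at 8.58, 8.50 and 8.38 with the wildtype label against 9.38, 8.82 and 9.04 with the Rhau KO label. The arrays labelled Rhau KO were more scattered and all higher, at 0.59 (SE 0.136; limma adjusted p = 0.0130). Other Nrp2 probe sets above the filter differed by 0.24 and 0.55 without passing. Nrp1, the neuropilin of endothelium and sensory axons, was at 12.36, 12.41 and 12.24 against 12.31, 12.41 and 12.33. Its groups overlapped, at 0.01 (SE 0.056), and its 3 other probe sets differed by -0.02 to 0.11.

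Of 9 plexins tested, 2 rose, 1 fell and 6 did not pass. Plxnd1, an endothelial semaphorin receptor needed for outflow tract and vessel patterning, was at 10.68, 10.48 and 10.55 against 10.99, 10.87 and 11.01. All arrays labelled Rhau KO were higher, by 0.39 on average (SE 0.068; limma adjusted p = 0.00312). Plxnc1, the receptor of Sema7a, was at 9.73, 9.69 and 9.66 against 10.23, 10.14 and 10.09. The arrays of each label lay close together and far from the other label, at 0.46 (SE 0.067; limma adjusted p = 0.00110). Of the other Plxnc1 probe sets, the one above the filter differed by 0.29 without passing. Sema7a itself differed by -0.10 (SE 0.244). This gene is named outside the naming rule, as the ligand of a plexin that rose.

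Plxna2, a plexin expressed in cardiac neural crest, moved the other way. It was at 9.78, 9.69 and 9.35 with the wildtype label against 9.10, 9.03 and 9.26 with the Rhau KO label, a difference of -0.48 (SE 0.115; limma adjusted p = 0.0157). Its 3 other probe sets were also lower, one with a call at -0.45 and the others without one at -0.36 and -0.28. The Plxna2 call was lost without replicate 1 or 2 labelled wildtype (-0.39 and -0.44) and without replicate 2 labelled Rhau KO (-0.43). Plxnb2 and Plxnb1, receptors of class 4 semaphorins, differed by -0.01 (SE 0.062) and -0.08 (SE 0.099).

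The gene named in the labels encodes a helicase of G-quadruplexes, so promoter windows were searched for the canonical G-quadruplex pattern, 4 runs of at least 3 guanines joined by loops of 1 to 7 bases, on either strand. Windows run from 250 bases before to 50 after a gene's start, from RefSeq in build GRCm38.p6. The pattern occurs in DNA windows here and was not looked for in transcripts. Of the 72 genes 61 had at least 1 window, 77 in all, and 28 windows (36.4%) held the pattern, against 18.6% of all 32851 windows. Median GC content was 64.3% in the members' windows and 52.7% in all. Among windows of members that rose, 4 of 12 held it, from 11 of the 14 genes since Ntn1, Dcc and Sema3b were not matched, and among those of members that fell, 2 of 4. A site for NKX2-5, TNAAGTG on either strand, was in 8 member windows (10.4%) against 11.5% of all windows. Matches are descriptions of the sequence.

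The 3 plexins that passed the test all held the G-quadruplex pattern, 2 of them higher and 1 lower. Windows of Ephb4, Sema5a and Epha4, which passed too, also held it, so it was not particular to plexins. Windows of the plexins that did not pass are not given. The 3 plexin windows were picked after the matches were seen. They are shown 5′ to 3′ with the pattern in capitals, because they carry the same feature across both directions of change. Plxna2 lies at chr1:194619579-194619878 on the plus strand, Plxnc1 at chr10:94944796-94945095 on the minus strand and Plxnd1 at chr6:115994956-115995255 on the minus strand. In Plxnc1 it occurs on both strands, as runs of G and as runs of C.
Plxna2: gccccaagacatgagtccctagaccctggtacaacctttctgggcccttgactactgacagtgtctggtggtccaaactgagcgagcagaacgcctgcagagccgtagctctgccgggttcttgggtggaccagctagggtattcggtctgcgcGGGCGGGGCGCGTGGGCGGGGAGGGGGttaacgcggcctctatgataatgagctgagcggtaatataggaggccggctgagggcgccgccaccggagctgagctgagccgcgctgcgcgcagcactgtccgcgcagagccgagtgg
Plxnc1: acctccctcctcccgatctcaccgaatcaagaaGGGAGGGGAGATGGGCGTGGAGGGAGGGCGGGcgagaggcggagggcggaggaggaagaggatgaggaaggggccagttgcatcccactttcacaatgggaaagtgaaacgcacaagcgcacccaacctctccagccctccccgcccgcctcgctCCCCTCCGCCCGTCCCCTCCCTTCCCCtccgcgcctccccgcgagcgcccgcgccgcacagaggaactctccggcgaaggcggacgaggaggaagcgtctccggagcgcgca
Plxnd1: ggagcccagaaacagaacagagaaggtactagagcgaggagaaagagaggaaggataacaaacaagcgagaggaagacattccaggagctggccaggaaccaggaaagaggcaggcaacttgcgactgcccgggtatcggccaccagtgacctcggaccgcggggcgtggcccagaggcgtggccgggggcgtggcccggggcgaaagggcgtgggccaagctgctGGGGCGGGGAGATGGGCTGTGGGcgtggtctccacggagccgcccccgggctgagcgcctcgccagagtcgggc

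Slit2 and Robo1, a ligand and receptor pair, both rose. Slit2, a secreted repellent, was at 11.29, 11.23 and 11.14 with the wildtype label against 12.06, 12.11 and 12.06 with the Rhau KO label. The label groups did not overlap and the 3 arrays labelled Rhau KO were nearly equal. The difference of 0.86 (SE 0.054) was a 1.81-fold rise with limma adjusted p = 5.37e-06. Its other probe sets rose by 1.02 and 1.22. Robo1 was at 9.90, 10.13 and 9.86 against 10.60, 11.00 and 10.62, a 1.71-fold rise of 0.77 (SE 0.111; limma adjusted p = 9.63e-04). The other Robo1 probe sets, both dimmer, did not share that difference, at -0.19 above the filter and 0.12 below it, and the mean of all Robo1 probe sets differed by 0.23 with limma adjusted p = 0.604.

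Other members of this pathway did not pass. Slit3 was at 8.20, 8.20 and 8.17 against 7.97, 7.57 and 8.19, and differed by -0.28 (SE 0.155). Robo4, the endothelial Robo, was at 7.01, 7.10 and 7.12 against 7.09, 7.09 and 7.72, so that its difference of 0.22 (SE 0.200) came with 1 high array, replicate 3 labelled Rhau KO. Robo2 differed by 0.33 (SE 0.280), while Slit1 and Robo3 lay below the filter. The promoter windows of Slit2 (chr5:47982905-47983204, plus strand) and Robo1 (chr16:72662899-72663198, plus strand) are shown because this ligand and its receptor rose together. Neither held the G-quadruplex pattern or TNAAGTG, so no capitals are marked.
Slit2: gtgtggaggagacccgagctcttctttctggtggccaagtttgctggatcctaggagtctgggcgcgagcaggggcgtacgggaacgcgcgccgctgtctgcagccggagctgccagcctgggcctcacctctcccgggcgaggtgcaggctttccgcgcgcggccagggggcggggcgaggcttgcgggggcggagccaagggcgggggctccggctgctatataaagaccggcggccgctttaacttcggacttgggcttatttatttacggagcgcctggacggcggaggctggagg
Robo1: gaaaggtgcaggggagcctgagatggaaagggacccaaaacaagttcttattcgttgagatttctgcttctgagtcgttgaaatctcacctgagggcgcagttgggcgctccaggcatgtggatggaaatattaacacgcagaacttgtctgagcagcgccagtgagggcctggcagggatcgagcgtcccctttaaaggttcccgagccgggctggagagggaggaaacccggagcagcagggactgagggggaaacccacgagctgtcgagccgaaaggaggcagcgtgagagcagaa

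In the netrin pathway the ligand and an attractive receptor rose while a repulsive receptor fell. Ntn1, a secreted laminin-related cue, was at 10.44, 10.37 and 10.45 with the wildtype label against 11.42, 11.16 and 11.30 with the Rhau KO label. This 1.83-fold rise of 0.87 (SE 0.070) had limma adjusted p = 2.07e-05, with every array labelled Rhau KO above every array labelled wildtype. A much dimmer Ntn1 probe set differed by 0.14 without passing. Dcc, the receptor that mediates attraction to netrin, was at 6.31, 6.15 and 5.89 against 7.35, 7.12 and 6.70. The wildtype-labelled arrays were near the filter level, with a mean of 6.12 just above it and replicate 3 just below it. The mean with the Rhau KO label was 7.06. The difference of 0.94 (SE 0.236) had limma adjusted p = 0.0198, and of its other probe sets one differed by 0.82 and another by -0.10, neither passing. The Dcc call was lost without replicate 3 labelled wildtype (0.82) and without replicate 1 or 2 labelled Rhau KO (0.79 and 0.90).

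Unc5b, a netrin receptor of vascular endothelium that mediates repulsion, was at 10.68, 10.67 and 10.99 against 10.44, 10.36 and 10.33. Every array labelled Rhau KO was lower, with a difference of -0.40 (SE 0.085; limma adjusted p = 0.00865). The other Unc5b probe set also fell, at -0.38. Neogenin (Neo1), which also binds repulsive guidance molecules, differed by 0.08 (SE 0.068) and Unc5c by -0.02 (SE 0.126), with overlapping groups. Other Neo1 probe sets differed by -0.34 to 0.46 and the other Unc5c one by 0.19, none passing. Ntn4, a netrin of basement membranes, was at 8.15, 8.06 and 8.28 against 7.68, 8.08 and 8.54 on its brightest probe set, a difference of -0.07 (SE 0.189). Its second probe set, below the filter, was at 1.09, 3.35 and 3.33 against 5.35, 5.34 and 5.40, so the 2 probe sets of this gene did not show the same thing.

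Ephrins, membrane-bound ligands, had 0 members that passed in limma among 7 tested, and 3 that were higher at an unadjusted p under 0.05, where 15.8% of all genes were higher. Of the 4 ephrin A genes tested, Efna5 was at 9.95, 10.07 and 9.82 against 10.04, 10.24 and 10.25, with overlapping groups and a difference of 0.23 (SE 0.085). Efna1 differed by 0.15 (SE 0.091), and by 0.33 on its other probe set without passing. Efnb3 and the arterial ligand Efnb2 had groups that did not overlap, at 0.18 (SE 0.057; limma adjusted p = 0.0536) and 0.14 (SE 0.062; limma adjusted p = 0.147). Other Efnb2 probe sets above the filter differed by 0.23 and 0.32 without passing, and one below it by -0.40. Efnb3 passed with quantile normalization (0.19, limma adjusted p = 0.0447) and with a filter on the dimmest 60% of probe sets (limma adjusted p = 0.0448).

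Eph receptors changed in both directions, with 2 that rose and 2 that fell of 8 tested. Epha3, a receptor known from endocardial cushions, was at 8.89, 8.99 and 9.08 with the wildtype label against 9.75, 9.50 and 9.56 with the Rhau KO label. The groups were apart, at 0.62 (SE 0.092; limma adjusted p = 0.00121), and its other probe set above the filter rose by 0.80. Epha4 was at 9.65, 9.71 and 9.57 against 9.33, 9.47 and 9.38, a difference of -0.25 (SE 0.077; limma adjusted p = 0.0446). Further Epha4 probe sets, above the filter too, differed by -0.28, -0.18 and 0.40, none passing. Among the fits without 1 array, Epha4 passed only without replicate 2 labelled Rhau KO, with differences of -0.29 to -0.22.

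Ephb4, the venous receptor of Efnb2, was at 8.76, 8.74 and 8.87 against 9.09, 8.97 and 9.34. It rose by 0.34 (SE 0.108; limma adjusted p = 0.0490), with every array labelled Rhau KO higher. Ephb3, an Eph receptor that binds B ephrins, was at 9.87, 9.87 and 10.08 against 9.73, 9.72 and 9.55, and fell by 0.27 (SE 0.085; limma adjusted p = 0.0466). Both rest on 1 probe set, and both p-values lie close to the threshold. Ephb3 lost its call whichever array was left out (-0.31 to -0.20), and Ephb4 kept it only without replicate 2 labelled Rhau KO (0.24 to 0.43 over the 6 fits). Epha7 and Epha2 did not pass, at 0.15 (SE 0.058) and -0.10 (SE 0.180), nor did Ephb1, at 0.62 (SE 0.327).

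**Figure D3:**
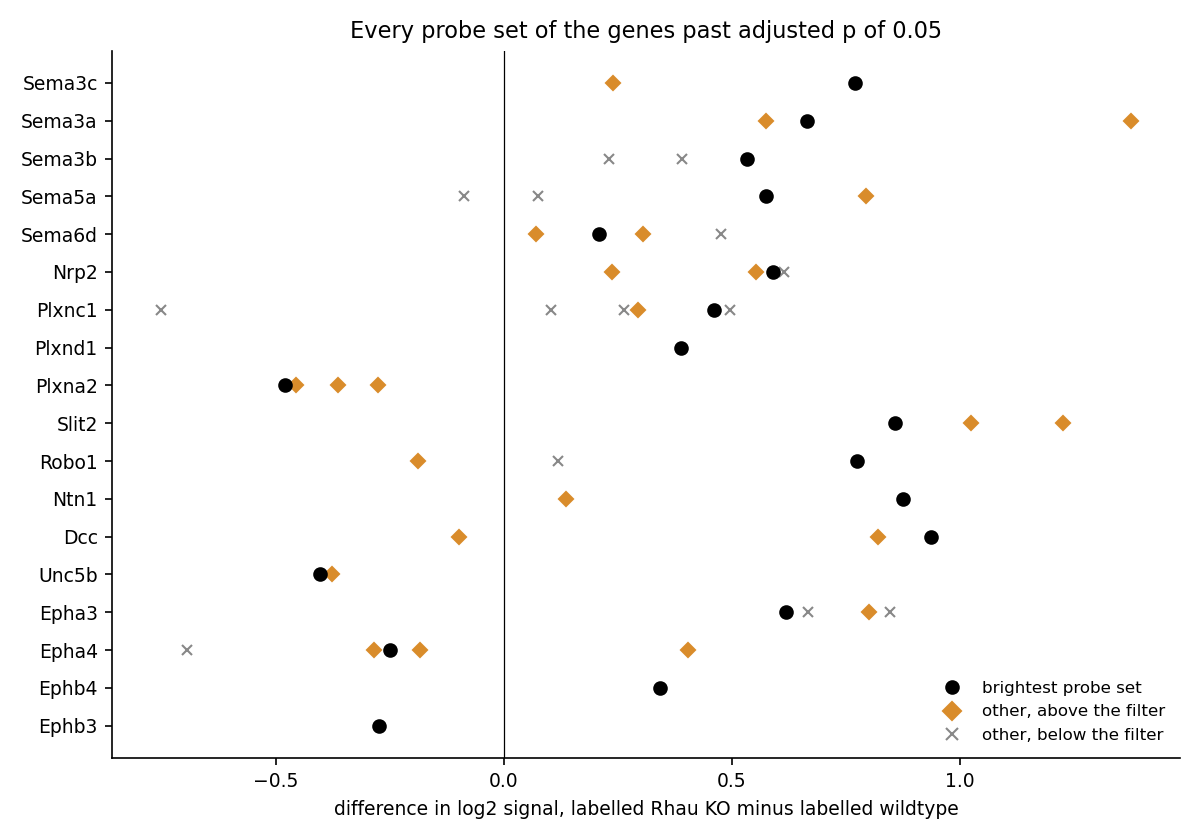
Difference in log2 signal, labelled Rhau KO minus labelled wildtype (x axis), of every probe set of the 18 genes that passed (y axis). Black circles are the brightest probe sets, orange diamonds other probe sets above the filter and grey crosses those below it; Slit2, Sema3a, Unc5b, Plxna2 and Epha3 have all probe sets on one side of 0, whereas Robo1, Dcc, Plxnc1, Sema5a and Epha4 have some on the other side.

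Of the 18 genes that passed, 15 had other probe sets, and 23 of these other probe sets, from 14 genes, lay above the filter. By sign alone 20 of the 23 pointed the same way as the brightest one. Tested on their own among all 22796 probe sets above the filter, of which 14.6% were called, 7 of the 23 passed, each in the direction of its gene. The 7 belong to Slit2, Sema3a, Epha3, Plxna2 and Unc5b.

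The 19 genes below the filter were not tested. They are Efna3, Epha5, Epha6, Epha8, Epha10, Ephb6, Ntn3, Ntn5, Robo3, Sema4a, Sema4f, Sema5b, Sema6b, Sema6c, Slit1, Unc5a and Unc5d, with Plxna4os1 and Unc5cl. Their mean log2 signals ran from 2.70 to 5.80 and their differences from -0.71 to 1.34. Sema5b was the member of these whose groups did not overlap, at 5.89, 5.48 and 4.78 against 6.14, 6.09 and 6.14. Unc50, the tested symbol match, differed by 0.02 (SE 0.077).

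Downstream effectors and partners of these receptors that passed were mostly lower. Of 60 tested genes of that list, 3 rose, 10 fell and 47 did not pass, against 8.2% and 10.8% of all genes. Of these effector calls 23.1% were higher, against 43.2% of the calls among all genes. With median centring 1 rose and 15 fell, where 532 of all genes rose and 1846 fell. Dpysl3, a collapsin response mediator that acts below semaphorin receptors, rose from 12.35 ± 0.01 to 12.91 ± 0.08 (SD, n = 3 each), a difference of 0.56 (limma adjusted p = 4.83e-05). Cap1 (0.60), an actin-binding partner of Abl kinases whose groups overlapped, and Flrt2 (0.22), a ligand of Unc5 receptors, rose as well. Hjv, a member by family of the repulsive guidance molecules that bind neogenin, fell by 1.67. The netrin effector Ablim1 fell by 0.57, the exchange factor Arhgef11 of plexin B by 0.56 and Arhgap39, a Robo partner, by 0.50. Of the 13 tested effectors of ephrins and Eph receptors, Vav2 (-0.40), Rgs3 (-0.37), Ptpn13 (-0.31) and Sdcbp (-0.24) fell and 9 did not pass. These 4 are named outside the naming rule, after their values were seen.

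Some markers of other cell types also differed between the labels in the same arrays. Beside each marker count here and below, 8.2% of all genes tested rose and 10.8% fell. Endothelial markers rose for 3 of 8 tested, namely Kdr (0.63), Cdh5 (0.50) and Tie1 (0.34), and 5 did not pass. Their summed linear signal was 9017 to 9903 in the arrays labelled wildtype and 10345 to 11180 in those labelled Rhau KO. Pecam1 and Emcn, also endothelial, differed by 0.07 and -0.03 without passing. Sox10, Tubb3 and these 2 fall outside the naming rule and were picked after seeing their values. Of the cushion and endocardial list 1 of 6 rose, Npr3 (0.41), with a summed signal of 14274 to 15974 against 14504 to 15824. Among neural crest and neuronal markers 3 of 6 rose, Ednrb (0.78), Elavl4 (0.63) and Gap43 (0.32), and the summed signal was 3126 to 3236 against 4775 to 4978. Ednrb made up most of that sum and of its rise, at a mean log2 signal of 11.04 against 11.82. Sox10, the glial and neural crest factor, was at 6.51 and 6.55 and differed by 0.04, and the neuronal tubulin Tubb3 differed by -0.38, neither passing.

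Cardiomyocyte markers fell for 4 of 8, with Myh6 (-0.35), Ryr2 (-0.26) and Tnni3 (-0.26) moving most. The 4 that did not pass, picked after their values were seen, were Myh7 (0.16), Actn2 (0.06), Nppa (0.03) and Tnnt2 (-0.13). Erythroid markers fell for 4 of 4, with Epb42 at -1.57, Alas2 at -1.39 and Slc4a1 at -1.27. Erythroid summed signal was 32647 to 37455 in the arrays labelled wildtype and 18710 to 25901 in those labelled Rhau KO. Macrophage markers rose for 2 of 5, Lyz2 (2.98) and Mrc1 (0.43), at a summed signal of 2164 to 2206 against 3080 to 3742. Most of that rise lay with Lyz2, at a mean log2 signal of 7.32 against 10.30. Csf1r (0.04), Adgre1 (0.18) and Cd68 (0.24) did not pass, and the first 2 of these were picked after their values were seen. Smooth muscle markers had 1 of 4 lower, Cnn1 (-0.36), at 33493 to 36346 against 29522 to 33182. Of 6 epicardial markers 0 passed in limma and 3 were lower at an unadjusted p under 0.05 (summed signal 10455 to 11862 against 9853 to 10307), with Aldh1a2 at -0.31. At that unadjusted threshold 16.8% of all genes were lower. No marker of these lists was at 0 on all arrays. The part of cell composition in the guidance genes was not tested, and in whole hearts fewer cells of a type and less RNA per cell cannot be told apart.

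The arrays that carry Xist together with Y-linked signal enter every value above. Using only those 3 arrays, 8 guidance genes passed as higher and 2 as lower, against 2.4% and 3.61% of all genes. Without these 3 arrays, which leaves 2 labelled wildtype (Y-linked signal of 1.23% and 2.04%) and 1 labelled Rhau KO (Xist at 0.23% of the highest array), 8 passed as higher and 2 as lower, against 3.04% and 6.27%. In each fit 1 label has a single array, whose spread is taken from the pair of the other label, so the calls have no replicate check in that label. With only those 3 arrays, Y-linked signal was also lower with the wildtype label (39.3%) than with the Rhau KO label (59.6% and 82.8%). Without them it was 1.23% and 2.04% against 100%, so label and sex cannot be told apart in that fit. Neither fit thus separates label from sex-linked signal, and the genes they share are no check on it. The fits shared 6 higher genes and Unc5b as lower. Dcc, Plxnc1 and Sema3f passed in the former alone, and Ephb4, Plxnd1 and Plxna2 in the latter alone. Sema3f, which did not pass with all arrays, was at -1.01 (limma adjusted p = 0.0283) where its high replicate 3 was the single array labelled wildtype. Slit2 was at 0.95 and 0.80 in these fits, Ntn1 at 0.84 and 0.90, Sema3c at 0.66 and 0.85 and Unc5b at -0.59 and -0.34. Dcc was at 1.34 and 0.47, Sema3b at 0.86 and 0.28 and Ephb4 at 0.16 and 0.59.

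With the arrays' mean Y-linked signal added as a covariate, 2 guidance genes rose and 0 fell in limma, where 0.37% and 1.06% of all genes did so. At an unadjusted p under 0.05 the counts were 14 and 2, against 6.44% and 8.27% of all genes. The 2 that rose after adjustment were Slit2 at 0.97 (SE 0.118; limma adjusted p = 0.00534) and Ntn1 at 0.93 (SE 0.159; limma adjusted p = 0.0227). All 18 kept their direction. Sema3b stood at 1.06, Nrp2 at 1.03, Dcc at 1.74, Sema5a at 0.90 and Unc5b at -0.62, each over 1.5 times its value without the covariate, while Plxna2 stood at -0.22 and Ephb4 at 0.06. Standard errors were larger in this fit, 0.193 against 0.087 for Sema3a, so single values are less precise. The covariate itself splits by label, at up to 39.3% with the wildtype label and from 59.6% with the Rhau KO label. The parts of label and Y-linked signal therefore cannot be told apart well, and these values are not sex-corrected effects.

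**Figure D4:**
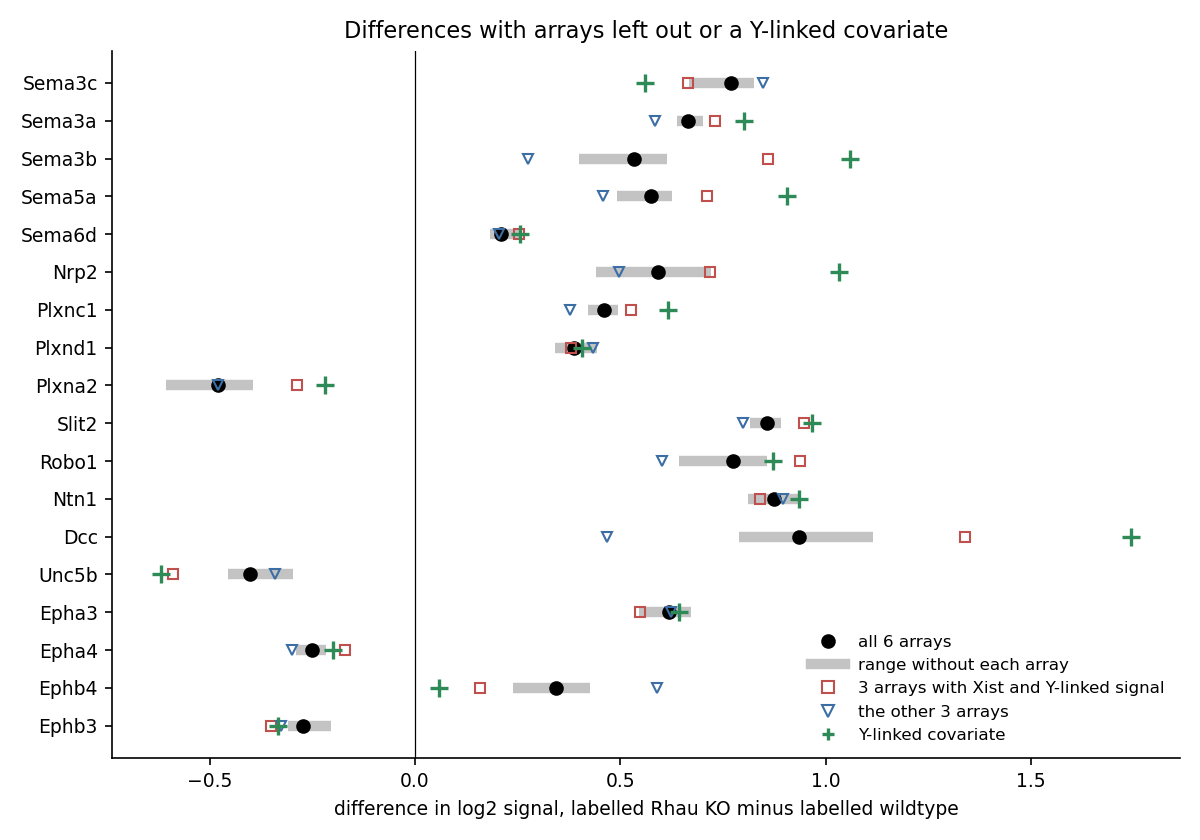
Difference in log2 signal, labelled Rhau KO minus labelled wildtype (x axis), of the 18 genes that passed (y axis), with all 6 arrays (circles), the range over fits without each array (grey bars), the 3 arrays with Xist and Y-linked signal (squares), the other 3 arrays (triangles) and the Y-linked covariate (crosses). Slit2, Ntn1 and Epha3 stay close to their value in every fit, whereas Dcc runs from 0.47 to 1.74 and Ephb4 from 0.06 to 0.59.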

How the data were processed

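Biotin-labelled cRNA was made from total RNA of embryonic hearts with a 3' amplification kit, per the labels' protocols, and each sample has 1 Affymetrix array. The authors deposited log2 values made with MAS5, per the submitters' processing notes; no MAS5 version is given there. On the linear scale the 2% trimmed mean was 500 on all 6 arrays, and log2 medians were 6.68 to 6.80. The number of arrays limits the precision, and detection calls were not used here.

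Control probe sets (64 of 45101) were left out. Of the rest, 34945 name 1 gene in the platform annotation, and 34741 of these were matched to RefSeq by Entrez identifier. Each gene took its brightest probe set, and genes in the lowest 40% of all probe sets were left out. The 12416 genes left went through limma 3.58.1 under R 4.3.3 (lmFit, eBayes with trend, two-sided, Benjamini-Hochberg adjustment), and every adjusted p comes from it. The fit was checked on simulated data. Tables and plots used Python 3.11.15, pandas 2.3.3 and matplotlib 3.10.9.

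Every member that passed is named, and in each role up to 2 of highest signal that did not. Effectors are named up to 4 in each direction among those that passed, and markers up to 3 in each list. Members, lists and alternatives were chosen with earlier results of these data known. The main fit did not pair arrays by replicate number. Correlations of same-numbered deviations were -0.012, 0.045 and 0.013, which show no sign of pairing but cannot exclude it.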

Additional observations from a re-analysis of the deposited data

How the results depend on the processing

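In each alternative run with 1 value per gene, all those of the 18 guidance genes that were in the fit kept their direction. The mean of all probe sets held 16 of them and the filter on the lowest 60% held 15. With every probe set on its own, direction was not scored by gene. Slit2 and Ntn1 passed in each run by gene that kept at least 2 arrays per label. Against 14 higher and 4 lower guidance genes, the mean of a gene's probe sets gave 6 and 3, no filter 11 and 2, every probe set on its own 12 and 2, and eBayes without trend 12 and 0. Among all genes the main fit had 1018 higher and 1336 lower. These 4 runs gave 608 and 824, 801 and 1167, 1228 and 1409, and 614 and 878, in that order. The Y-linked covariate gave 2 and 0, the 3 arrays with both sex-linked signals 8 and 2, and the other 3 arrays 8 and 2. With the replicate number as a block there were 13 and 2, with the calls of Epha4, Ephb3 and Sema5a lost. Among all genes that fit gave 955 and 1300. Leaving out each array gave 9 to 11 higher and 1 to 2 lower, with 9 higher without replicate 3 labelled wildtype and 1 lower without replicate 1 or 2 labelled wildtype. Over all genes the fits without 1 array gave 590 to 802 higher and 916 to 1206 lower. Median centring gave 10 and 4, with Sema3b, Sema5a, Sema6d and Ephb4 lost, and 532 and 1846 among all genes.

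Of 2354 genes called in all, averaged probe sets left 1432, no trend 1492, the covariate 178, the 3 arrays with both signals 746 and the other 3 arrays 1156, and leaving out each array gave 1506 to 2008. Among effectors, 3 higher and 10 lower became 1 and 15 with median centring, 5 and 11 with every probe set, 2 and 3 with averaged probe sets, 0 and 0 with the covariate, 2 and 2 in the arrays with both signals and 1 and 5 in the others. Leaving out each array gave 1 to 3 higher and 8 to 11 lower effectors. Ntn4 turned from -0.07 to 1.36 (limma adjusted p = 0.0355) when its probe sets were averaged, where the second one was the dim one with a difference of 2.78. Offsets of 1 and 64, quantile normalization, array weights and the filter on the lowest 60% kept 15 or more of the 18 calls where all were tested. The cause of other shifts was not tested. Signals near the filter, such as those of Dcc with the wildtype label, carry no detection call here, which limits how firmly they can be read.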
